A study of Mus musculus with 9 samples.

Results

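The 10 genes described here encode receptors and partners of natural killer (NK) cells and the CD8 coreceptor. They were followed in spleen cells isolated as CD4+ T cells that were kept at rest or stimulated with and without TRAIL. They were taken by symbol from the 55487 genes of the deposited table. They comprise the NK receptor genes *Ncr1*, *Klrb1c*, *Klrd1*, *Klrk1* and *Klre1*, the transcription factor gene *Eomes*, the adaptor genes *Tyrobp* and *Fcer1g*, and the CD8 lineage genes *Cd8a* and *Cd8b1*. All 10 were among the 15536 genes tested, which reached 1 TPM in at least 3 libraries, and none was listed at 0.0001 TPM, which the table gives in place of most zeros, in any library.

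The cells came from spleens of female wild-type C57BL/6 mice (*Trail-r*+/+) of 6 to 7 weeks and were isolated with a kit for CD4+ T cells. The first group was kept in medium without Abs, for a time not given in the sources used here. The stimulated group received anti-CD3 Ab (3 µg/ml) and anti-CD28 Ab (2 µg/ml) for 24 h, which trigger the TCR and its CD28 costimulus. The TRAIL-treated activated T cells received both Abs together with TRAIL (10 µg/ml), a death ligand related to tumor necrosis factor, for 24 h. Each group had 3 libraries, and since nothing states that they came from separate mice or cultures, every p-value measures only the spread between these libraries, which may be technical. RNA abundance was given as TPM, the share of a library that a transcript takes once its length is allowed for, so that levels of different genes can be set side by side but the depth and the counting error are unknown.

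NK cells are innate lymphocytes that kill stressed or infected cells, and they decide to do so by weighing signals from activating and inhibitory receptors. Many of these receptors have short tails with no signaling motif and pair with small adaptors, of which DAP12 (*Tyrobp*) and the Fc receptor γ chain (*Fcer1g*) carry immunoreceptor tyrosine-based activation motifs (ITAMs). CD8 is the coreceptor of cytotoxic T cells and binds major histocompatibility complex class I, and T cells that commit to the CD4 lineage silence both of its genes. NK cells and CD8+ T cells are therefore cell types that a CD4 isolation is meant to remove, although some activated or memory T cells also carry NK receptors. In bulk RNA, fewer cells of a type and less RNA per cell cannot be told apart, and this holds for every gene below.

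As a check of the labelled cell type, the summed level of 8 T cell markers was 3675 to 3961 TPM in medium, 3732 to 3799 TPM in stimulated and 3658 to 3910 TPM in TRAIL-treated libraries, and *Cd4* had mean levels of 384, 220 and 384 TPM, respectively. Within this list, *Cd2* was called higher (1.09) and *Cd3g* lower (-1.04) after stimulation, and no marker was called in the other comparisons, although 6 of the 8 had an adjusted p under 0.05 in TRAIL-treated against stimulated cells. Markers of other splenic cells were also present in medium and moved between the groups. The sum of 14 myeloid markers went from 2274 to 2514 TPM in medium to 86.4 to 102 TPM in stimulated and 1658 to 1894 TPM in TRAIL-treated libraries. That of 8 B cell markers was 2029 to 2122, 177 to 200.3 and 854 to 959 TPM, and that of 7 erythroid markers reached 1.26% of its medium mean in stimulated and 26.9% in TRAIL-treated libraries. No marker of the myeloid or B cell lists was listed at 0.0001 TPM in all 3 libraries of a group.

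On the genome (GRCm38), the NK receptor genes *Klrb1c*, *Klre1*, *Klrd1* and *Klrk1* lie in the NK gene complex on chromosome 6. *Klrb1c* (ENSMUSG00000030325, chr6:128778485-128789215, minus strand) is separated by 788689 bases from *Klre1* (ENSMUSG00000050241, chr6:129577905-129585827, plus strand). *Klrd1* (ENSMUSG00000030165, chr6:129591782-129598775, plus strand) follows after 5954 bases and *Klrk1* (ENSMUSG00000030149, chr6:129610323-129623864, minus strand) after a further 11547 bases. *Cd8b1* (ENSMUSG00000053044, chr6:71322788-71337494, plus strand) and *Cd8a* (ENSMUSG00000053977, chr6:71373427-71379173, plus strand) lie 35932 bases apart on the same chromosome. The remaining genes stand alone, with *Ncr1* (ENSMUSG00000062524, chr7:4337724-4345164, plus strand) and *Tyrobp* (ENSMUSG00000030579, chr7:30413760-30417585, plus strand) on chromosome 7, *Eomes* (ENSMUSG00000032446, chr9:118478212-118486132, plus strand) on chromosome 9 and *Fcer1g* (ENSMUSG00000058715, chr1:171229572-171234365, minus strand) on chromosome 1. In the annotation, *Klrb1c* shares exonic sequence with *Gm44511* on the same strand and *Eomes* with *Gm33460* on the opposite strand, so their reads may be divided between the overlapping genes.

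Because the 5 NK receptor genes were all called lower after stimulation, the bases in front of their start sites were read. RefSeq start sites (GRCm38.p6) were held for 7 of the 10 genes, namely *Ncr1*, *Klrb1c*, *Klrk1*, *Klre1*, *Eomes*, *Fcer1g* and *Cd8a*. In the 250 bases before the start, the letters of a Runx motif (TGTGGT, or ACCACA on the other strand) stood in 4 of the 4 NK receptor windows and in 0 of the 3 others, whereas 14.0% of all 32851 promoter windows of this length held them. Of the 3 others, *Fcer1g* was also called lower after stimulation (-2.10), and no window was held for the NK receptor gene *Klrd1*. Whether the letters bear on the levels was not tested. All 250 bases of the *Klre1* window, which is among the 4, lie in annotated exons of the gene models, so that this window is not printed. The following windows of NK receptor genes lie outside annotated exons except for 5 bases of the *Klrb1c* window, and are printed 5′ to 3′ on the strand of the gene with matches of the searched motifs in capitals.
Ncr1: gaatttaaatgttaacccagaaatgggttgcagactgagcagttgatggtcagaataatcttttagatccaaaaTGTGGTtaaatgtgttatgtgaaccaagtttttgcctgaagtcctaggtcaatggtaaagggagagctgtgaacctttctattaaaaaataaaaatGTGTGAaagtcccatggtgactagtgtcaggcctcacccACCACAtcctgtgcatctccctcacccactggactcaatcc
Klrb1c: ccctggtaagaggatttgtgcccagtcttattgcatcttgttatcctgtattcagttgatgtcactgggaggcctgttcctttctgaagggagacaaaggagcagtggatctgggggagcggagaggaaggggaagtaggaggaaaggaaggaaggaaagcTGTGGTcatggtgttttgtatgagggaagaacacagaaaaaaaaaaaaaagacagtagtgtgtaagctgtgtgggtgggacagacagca
Klrk1: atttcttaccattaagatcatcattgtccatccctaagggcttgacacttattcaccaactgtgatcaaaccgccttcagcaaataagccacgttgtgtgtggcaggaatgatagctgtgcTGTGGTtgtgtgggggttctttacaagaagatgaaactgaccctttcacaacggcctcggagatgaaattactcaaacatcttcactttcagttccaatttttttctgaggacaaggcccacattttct
The *Ncr1* window (chr7:4337465-4337714, plus strand) held the Runx letters 176 and, on the other strand, 41 bases before the start, with the T-box letters (TCACAC, or GTGTGA on the other strand) 80 bases before it. The *Klrb1c* window (chr6:128788642-128788891, minus strand) held TGTGGT at 89 bases and the *Klrk1* window (chr6:129623865-129624114, minus strand) at 129 bases before the start. The whole *Klrb1c* window lies inside the locus given above for that gene, because its RefSeq start lies downstream of the first base of the locus. The T-box letters were found in no other of the 7 windows and in 12.3% of all windows, and those of a PU.1 motif (GAGGAAGT, or ACTTCCTC on the other strand) in 0 of the 7 and in 2.44% of all. These short motifs do not overlap one another in the windows, and a match is a run of letters and not a measured binding site.

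Of the 10 genes, 7 were called lower and 0 higher in stimulated than in medium cells. A gene was called changed when limma's test on log2(TPM + 1), adjusted over all 15536 genes, gave an adjusted p under 0.05 with a difference of at least 1 on the log2 scale. Of all genes tested, 19.5% were called lower and 12.4% higher in this comparison, and the median difference was -2.06 over the 10 genes and -0.15 over all genes. With TRAIL added to the stimulation, *Ncr1*, *Klrb1c*, *Tyrobp* and *Fcer1g* were called higher and *Cd8a* was called lower than with stimulation alone, that is, 4 and 1 of the 10 genes against 16.6 and 14.3% of all genes. Compared with medium, TRAIL-treated activated T cells had 7 of the 10 genes called lower and 0 called higher, whereas 2.13% of all genes were called lower and 2.49% higher. The comparisons share their libraries pairwise and are therefore not independent of each other. Every stimulated library was below every medium library for 9 of the 10 genes (42.6% of all genes tested) and above for 1, *Cd8a* (29.9%). TRAIL-treated libraries were all above the stimulated ones for 7 genes (35.5%) and all below for 2 (34.9%), and they were below every medium library for 10 of 10 genes (38.2%). By the adjusted p alone, with no fold threshold, 9 genes were lower after stimulation (40% of all genes), 6 were higher and 2 lower in TRAIL-treated against stimulated cells (33.5 and 33.5%), and 8 were lower and 0 higher in TRAIL-treated cells against medium (24.6 and 8.03%). Rescaling the libraries by median-of-ratios or quantile normalization moved the median of all genes by 0.17 on the log2 scale in stimulated against medium libraries and by 0.15 and 0.14 in TRAIL-treated against medium libraries. Under these scalings 48.9 and 50.2% of the called genes were higher after stimulation, compared with 38.8% here, and 73.0 and 70.6%, compared with 53.9%, in TRAIL-treated cells against medium. In the latter comparison 190 and 212 genes were then called lower and 513 and 508 higher, in place of 331 and 387. No gene of the 10 changed direction under either scaling.

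**Figure D1:**
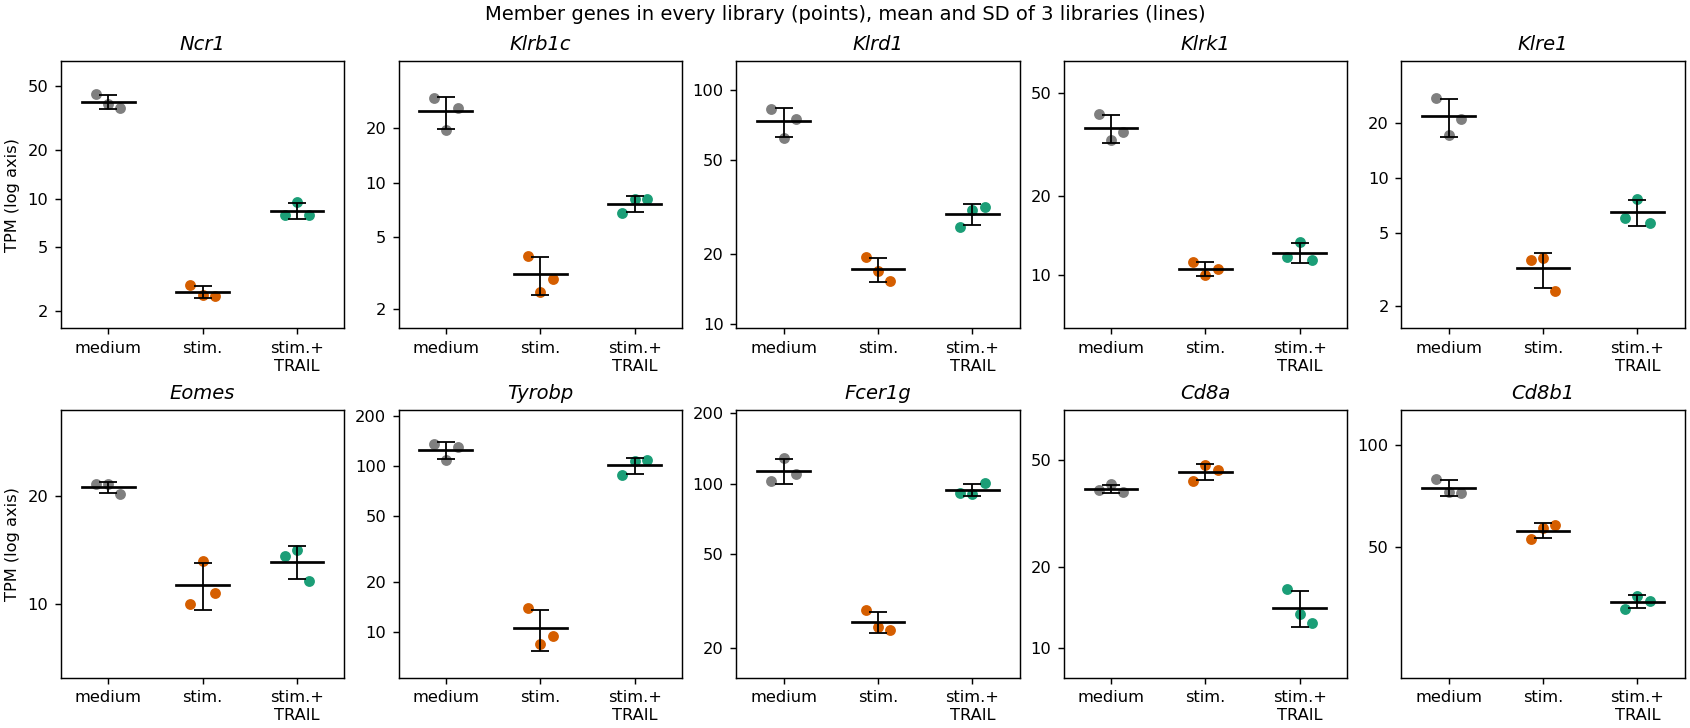
Levels of the 10 genes in TPM (log axis, a separate scale for each gene) in the 3 libraries of each group (points), with mean and SD (lines). For *Ncr1* the medium libraries lay at 36.7 to 44.7 TPM, the stimulated at 2.51 to 2.90 TPM and the TRAIL-treated at 7.89 to 9.52 TPM, whereas *Cd8a* and *Cd8b1* were lowest in the TRAIL-treated libraries.

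Among the 5 NK receptor genes, *Ncr1*, which encodes the natural cytotoxicity receptor NKp46, had the largest difference between stimulated and medium cells. It measured 44.7, 38.9 and 36.7 TPM in medium, 2.90, 2.53 and 2.51 TPM after stimulation and 7.89, 9.52 and 7.91 TPM after stimulation with TRAIL. The groups did not overlap, and the TRAIL-treated libraries stood between the others but nearer to the stimulated ones. The stimulated mean was 6.59% of the medium mean (difference -3.49 ± 0.12 SE on the log2 scale, adjusted p = 4.3e-09), and the TRAIL-treated mean was 21.0% of it (-2.12 ± 0.12, adjusted p = 2.0e-06). TRAIL-treated cells had 3.19-fold the level of stimulated cells (1.37 ± 0.12, adjusted p = 3.8e-06), a call that was lost with a pseudocount of 5 in place of 1 (0.81).

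*Klrb1c*, which encodes the NK1.1 antigen by which NK cells of C57BL/6 mice are recognized, followed the same order. It measured 29.5, 19.5 and 25.8 TPM in medium, 3.95, 2.51 and 2.93 TPM after stimulation and 6.80, 8.09 and 8.12 TPM with TRAIL, again without overlap. It fell 7.97-fold with stimulation (-2.65 ± 0.18, adjusted p = 4.3e-07). The rise with TRAIL over stimulation alone was 2.45-fold (1.08 ± 0.18, adjusted p = 3.2e-04), and the difference no longer reached the fold threshold without the second stimulated library (0.97), under quantile scaling (0.91) or with a pseudocount of 5 (0.64). Against medium, the TRAIL-treated level was 30.8% (-1.56, adjusted p = 2.0e-04).

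*Klrd1*, *Klrk1* and *Klre1* are lectin-like genes that lie side by side. *Klrd1* encodes CD94, the partner of NKG2A and related receptors but not of NKG2D, and was the most abundant NK receptor gene of the 5 in every group, with 82.7, 62.4 and 74.8 TPM in medium, 19.4, 16.8 and 15.3 TPM after stimulation and 26.0, 30.8 and 31.5 TPM with TRAIL. Here too the groups did not overlap and the TRAIL-treated libraries stood in the middle. *Klrd1* fell 4.27-fold with stimulation (-2.03 ± 0.13, adjusted p = 4.3e-07), and its TRAIL-treated mean was 1.71-fold the stimulated mean (0.74, adjusted p = 6.6e-04), below the fold threshold for a call.

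*Klre1*, whose product pairs with other lectin-like receptors of the same complex, had the lowest medium mean of the 5, although its libraries overlapped those of *Klrb1c*. It measured 27.5, 17.3 and 21.2 TPM in medium, 3.58, 3.64 and 2.41 TPM after stimulation and 6.09, 7.72 and 5.73 TPM with TRAIL. All stimulated libraries were below all TRAIL-treated ones, which in turn were below all medium ones. The stimulated mean was 14.6% of medium (-2.44 ± 0.19, adjusted p = 1.4e-06) and the TRAIL-treated mean 29.6% (-1.60, adjusted p = 2.8e-04), and TRAIL-treated against stimulated cells differed by 0.84 (adjusted p = 2.8e-03), which was not called.

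*Klrk1*, which encodes the activating receptor NKG2D and is also carried by CD8+ T cells, differed least between the stimulated groups. Its levels were 41.5, 33.0 and 35.4 TPM in medium, 11.2, 9.93 and 10.5 TPM after stimulation and 11.7, 13.3 and 11.3 TPM with TRAIL. Every stimulated library was below every TRAIL-treated one, but by a narrow gap. *Klrk1* fell 3.47-fold with stimulation (-1.70 ± 0.12, adjusted p = 5.5e-07), whereas the difference between TRAIL-treated and stimulated cells was 0.18 ± 0.12 (adjusted p = 0.193) and was not called. Against medium, TRAIL-treated cells were 1.52 lower on the log2 scale, a called difference (-1.52, adjusted p = 1.7e-05).

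The NK receptor genes were all called lower after stimulation, but by differences of unequal size, and ratios within a library were used to compare them, since a ratio of TPM does not move with the scaling of the library. The *Ncr1* to *Klrd1* ratio averaged 0.552 in medium, 0.154 in stimulated and 0.288 in TRAIL-treated libraries, so that *Ncr1* fell more than *Klrd1* in each of the 3 stimulated libraries. On the log2 scale, the difference was -1.83 for stimulated against medium and 0.89 for TRAIL-treated against stimulated cells, each with an exact two-sided permutation p of 0.1, the smallest that 3 libraries against 3 allow. The *Klrk1* to *Klrd1* ratio went the other way, with means of 0.501, 0.618 and 0.414, respectively (0.30 for stimulated against medium and -0.58 for TRAIL-treated against stimulated libraries, exact permutation p = 0.1 for each). A total of 10 ratios were compared over 3 pairs of groups. Of the 30 differences, 26 had the smallest possible p, with 0.115 as the smallest p after Benjamini-Hochberg adjustment, so that none could pass. Only the *Cd8a* to *Cd4* ratio and its form with *Cd8b1* were planned, and the other ratios were chosen after the values were seen.

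Set against *Cd3e*, which encodes a chain of the TCR complex, *Klrd1* kept its order of groups. The *Klrd1* to *Cd3e* ratio averaged 0.191 in medium, 0.0467 in stimulated and 0.101 in TRAIL-treated libraries, and the groups differed by -1.99 and 1.10 on the log2 scale for stimulated against medium and TRAIL-treated against stimulated libraries (exact permutation p = 0.1 each). The summed myeloid, B cell and erythroid markers given above were also lower after stimulation and intermediate with TRAIL, and their part in the levels of the NK receptor genes was not tested.

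**Figure D2:**
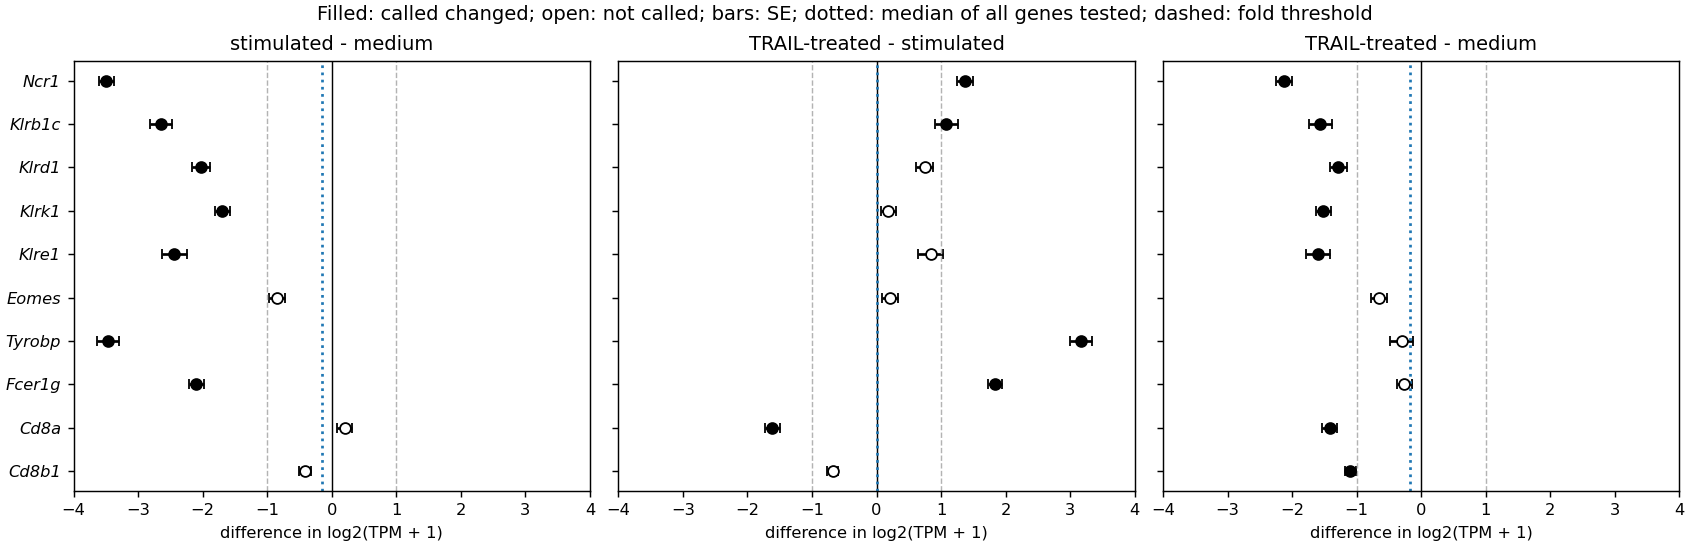
Differences in log2(TPM + 1) between groups for each of the 10 genes (points, with SE as bars) in the 3 comparisons, filled where the gene was called changed, with the median of all genes tested as a dotted line. Stimulation moved *Ncr1* and *Tyrobp* furthest (-3.49 and -3.47), and TRAIL-treated cells differed from medium in the NK receptor and CD8 genes but not by a call in *Eomes*, *Tyrobp* or *Fcer1g*.

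The wider set of NK receptor genes was described with 21 further genes, all of which were tested. Of these, 16 were called lower and 0 higher after stimulation (19.5 and 12.4% of all genes), 8 were called higher and 1 lower in TRAIL-treated against stimulated cells (16.6 and 14.3%), and 12 were called lower and 0 higher in TRAIL-treated cells against medium (2.13 and 2.49%). Their median differences were -1.85, 0.71 and -1.08 on the log2 scale, respectively, and they were not read under the other scalings. *Cd226*, which had the highest mean of them over the 9 libraries and encodes an adhesion and activating receptor that T cells also carry, went from a mean of 61.2 TPM in medium to 5.87 TPM after stimulation and was at 60.3 TPM with TRAIL (-3.18 and 3.16, adjusted p = 5.8e-09 and 7.7e-09).

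Not all abundant NK receptor genes shared this order. *Slamf7*, a receptor of the SLAM family found on several kinds of lymphocytes, had means of 32.1 TPM in medium, 62.9 TPM after stimulation (0.94, not called) and 19.3 TPM with TRAIL, and the last of these was called lower than stimulation alone (-1.64, adjusted p = 1.2e-06). *Klrc1*, which encodes the inhibitory partner NKG2A of CD94, had means of 23.5, 16.1 and 8.89 TPM and was called lower only in TRAIL-treated cells against medium (-1.29, adjusted p = 4.6e-04). The Ly49 family gene *Klra7* behaved in the same manner, with means of 23.7, 12.0 and 8.63 TPM (-1.35 for TRAIL-treated cells against medium, adjusted p = 3.3e-04). The *Klra*, *Klrb1* and *Klrc* genes have close copies in the same complex, and the authors' counting could divide reads between them.

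*Eomes*, which encodes a T-box transcription factor of NK cells and of memory CD8+ T cells, was not called in any comparison. It measured 21.6, 21.7 and 20.3 TPM in medium, 10.0, 13.2 and 10.7 TPM after stimulation and 13.7, 14.2 and 11.6 TPM with TRAIL. All medium libraries were above the others, whereas the stimulated and TRAIL-treated libraries overlapped. The stimulated mean was 53.5% of medium (-0.85 ± 0.12, adjusted p = 1.5e-04) and the TRAIL-treated mean 62.1% (-0.65, adjusted p = 3.9e-03), both under the fold threshold. TRAIL-treated and stimulated cells differed by 0.20 (adjusted p = 0.177).

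The effector genes that NK cells share with activated T cells moved in both directions. Among 13 genes of the NK and cytotoxic programme, 5 were called higher and 4 lower after stimulation (12.4 and 19.5% of all genes), and 3 higher and 7 lower in TRAIL-treated against stimulated cells (16.6 and 14.3%). The 4 genes called lower after stimulation, named after their values were seen, were *Ccl5* (-2.14), *Cd7* (-4.82), *Zeb2* (-1.34) and *Ctsw* (-1.33). Their TRAIL-treated means lay between those of stimulated and medium cells, an order that choosing genes for low stimulated libraries favours. The 5 called higher, named in the same way, were *Gzmb*, *Il2rb*, *Nfil3* (5.19), *Tbx21* (3.26) and *Serpinb9* (2.42). Against medium, 1 of the 13 was called higher and 2 lower in TRAIL-treated cells (2.49 and 2.13% of all genes). Of the most abundant genes of the list, *Il2rb*, a receptor chain for IL-2 and IL-15, rose from a mean of 99.5 to 299 TPM with stimulation (1.58, adjusted p = 9.3e-07) and was at 66.1 TPM with TRAIL. *Gzma*, which encodes a granzyme, had means of 149, 230 and 51.3 TPM, and TRAIL-treated cells were called lower than both stimulated cells (-2.13, adjusted p = 5.6e-07) and medium cells (-1.51, adjusted p = 7.5e-05). *Id2*, an inhibitor of E proteins needed for NK cell development, had means of 206, 110 and 198 TPM and was not called in any comparison. Its differences were under the fold threshold after stimulation (-0.89, adjusted p = 2.1e-05) and in TRAIL-treated against stimulated cells (0.83, adjusted p = 3.4e-05). *Gzmb*, which encodes another granzyme, differed by 6.22 for stimulated against medium cells and by -6.18 for TRAIL-treated against stimulated cells, both called.

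The adaptor genes *Tyrobp* and *Fcer1g* had the highest TRAIL-treated levels of the 10 relative to medium. *Tyrobp* encodes DAP12, which signals for activating receptors of NK cells and of myeloid cells. It measured 136, 108 and 131 TPM in medium, 13.9, 8.44 and 9.38 TPM after stimulation and 87.8, 107 and 108 TPM with TRAIL. Every stimulated library was far below every other library, and the highest TRAIL-treated library was just below the lowest medium library. *Tyrobp* fell 11.9-fold with stimulation (-3.47 ± 0.17, adjusted p = 5.0e-08) and was 9.57-fold higher with TRAIL than with stimulation alone (3.16 ± 0.17, adjusted p = 1.1e-07). The TRAIL-treated mean was 80.7% of medium, and this difference was not called (-0.31, adjusted p = 0.199).

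*Fcer1g* encodes the γ chain shared by Fc receptors for IgE and IgG, which NKp46 also uses. It measured 103, 129 and 109.7 TPM in medium, 28.8, 24.6 and 23.9 TPM after stimulation and 91.2, 90.5 and 101 TPM with TRAIL. The order of groups was that of *Tyrobp*, with no overlap between them. It fell 4.41-fold with stimulation (-2.10 ± 0.11, adjusted p = 9.7e-08) and was 3.66-fold higher with TRAIL than with stimulation alone (1.83 ± 0.11, adjusted p = 2.8e-07), at 82.9% of medium (-0.26, adjusted p = 0.104).

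In TRAIL-treated cells both adaptor genes thus stood nearer to their medium level than the NK receptor genes of the 10 (21.0 to 40.1% of medium). Of the 21 NK receptor genes outside the 10, 12 were called lower than in medium, but *Cd226* was near its medium level (60.3 against 61.2 TPM). The *Tyrobp* to *Ncr1* ratio averaged 3.13 in medium, 3.95 in stimulated and 12.0 in TRAIL-treated libraries. The difference between TRAIL-treated and medium libraries was 1.94 on the log2 scale and that between TRAIL-treated and stimulated libraries 1.62 (exact permutation p = 0.1 each), whereas stimulated and medium libraries overlapped (0.33, exact permutation p = 0.2). *Tyrobp* also moved more than *Fcer1g* after stimulation. The ratio of these adaptor genes was 1.12 in medium, 0.405 in stimulated and 1.07 in TRAIL-treated libraries, and TRAIL-treated and medium libraries overlapped (-0.04, exact permutation p = 0.9).

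Both adaptor genes are abundant in myeloid cells, and 14 of 14 myeloid markers were called lower after stimulation (19.5% of all genes), 14 were called higher in TRAIL-treated against stimulated cells (16.6%), and 0 were called in TRAIL-treated cells against medium (2.13% lower and 2.49% higher of all genes). The myeloid sum was 3.98% of medium in stimulated and 75.7% in TRAIL-treated libraries. *Lyz2*, the lysozyme gene of macrophages, monocytes and neutrophils, had means of 545, 7.48 and 346 TPM, and the *Tyrobp* to *Lyz2* ratio averaged 0.231 in medium, 1.44 in stimulated and 0.291 in TRAIL-treated libraries. The *Tyrobp* to *Lyz2* ratio was thus higher in stimulated than in medium libraries (2.60 on the log2 scale, exact permutation p = 0.1), and so was that of *Fcer1g* to *Lyz2*, with means of 0.214, 3.51 and 0.273 (4.05, exact permutation p = 0.1). *Lyz2* was among the myeloid markers that fell most, and the 14 markers ranged in their difference after stimulation from -6.13 (*Vcam1*) to -1.33 (*Cd14*, named as the end of the range). The difference was larger than that of *Tyrobp* (-3.47) in 9 of the 14 and smaller in 5, and larger than that of *Fcer1g* (-2.10) in 12 and smaller in 2. Mast cells and basophils also use *Fcer1g*. Their summed markers, of which *Fcer1a* was not tested, were 20.7 to 23.3 TPM in medium, 4.73 to 6.97 TPM in stimulated and 12.7 to 13.9 TPM in TRAIL-treated libraries. The part of myeloid cells and mast cells in the levels of the adaptor genes was not tested.

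Of 10 genes for other ITAM adaptors and their signaling partners, 9 were tested and *Sh2d1b2* was not. Among them, 5 were called lower after stimulation (19.5% of all genes) and 4 higher in TRAIL-treated against stimulated cells (16.6%), and 0 were called in TRAIL-treated cells against medium (2.13% lower and 2.49% higher of all genes). The most abundant of them, *Cd247*, which encodes the ITAM-bearing ζ chain of the TCR complex, had means of 370.2, 397 and 416 TPM and was not called. The genes for the TCR-proximal signaling proteins *Lcp2*, *Zap70* and *Vav1* were not called in any comparison. The 5 genes that fell, which are named after their values were seen, were *Syk*, *Hcst*, *Plcg2*, *Sh2d1a* and *Sh2d1b1*. *Hcst*, which encodes DAP10, the adaptor of NKG2D, had means of 64.8, 25.2 and 71.8 TPM, so that TRAIL-treated cells were not called against medium (0.15, adjusted p = 0.34). *Syk*, the kinase that binds phosphorylated ITAMs in B cells, myeloid cells and NK cells, had means of 164, 30.4 and 95.0 TPM.

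**Figure D3:**
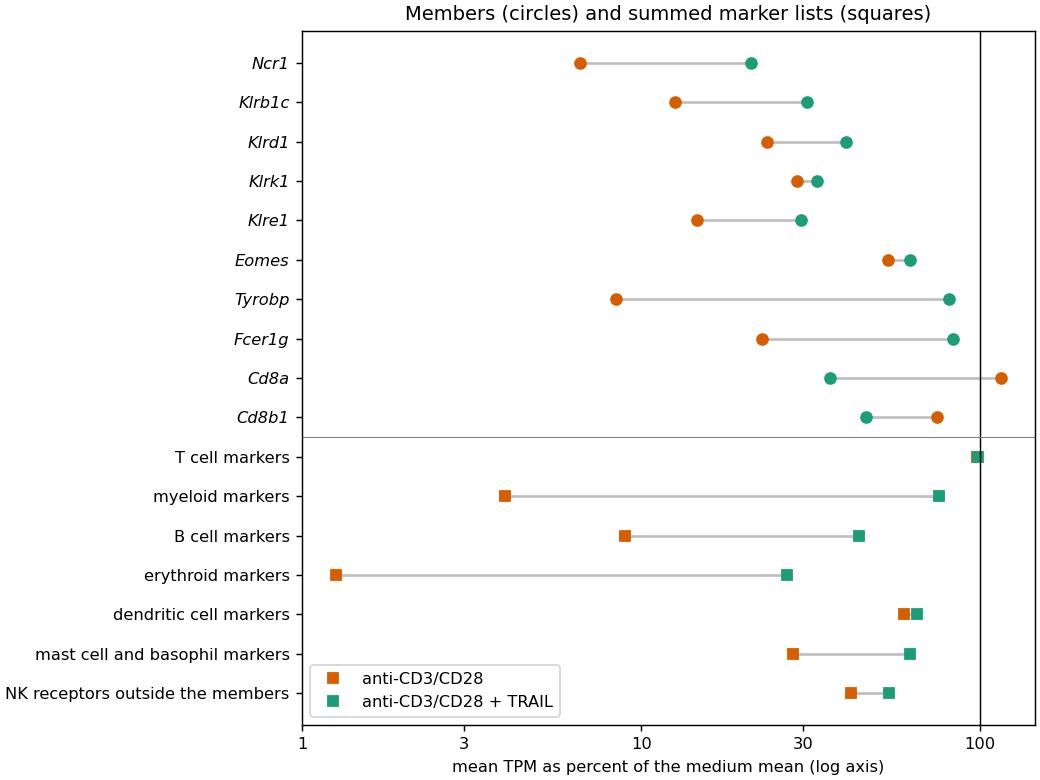
Mean TPM of each of the 10 genes (circles) and of the summed marker lists (squares) as a percent of the medium mean (log axis), in stimulated (orange) and TRAIL-treated (green) libraries. The adaptor genes *Tyrobp* and *Fcer1g* were at 80.7 and 82.9% with TRAIL, the myeloid sum at 75.7%, and the 5 NK receptor genes at 21.0 to 40.1%, whereas *Cd8a* and *Cd8b1* lay at 36.2 and 46.0% and were higher with stimulation alone.

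The CD8 genes had another order of groups. *Cd8a* encodes the CD8α chain, which forms homodimers or pairs with CD8β. It measured 38.5, 40.6 and 37.9 TPM in medium, 41.7, 47.8 and 45.7 TPM after stimulation and 16.6, 13.3 and 12.4 TPM with TRAIL. The TRAIL-treated libraries were all far below the rest, and the lowest stimulated library stood just above the highest medium library. The difference between stimulated and medium cells was 0.20 ± 0.12 (adjusted p = 0.148) and was not called. *Cd8a* was 3.20-fold lower in TRAIL-treated than in stimulated cells (-1.62 ± 0.12, adjusted p = 8.3e-07) and 2.77-fold lower than in medium (-1.41 ± 0.12, adjusted p = 2.6e-05).

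*Cd8b1* encodes the CD8β chain, which reaches the cell surface with CD8α on conventional CD8+ T cells. It measured 79.2, 72.8 and 72.2 TPM in medium, 52.6, 56.8 and 58.0 TPM after stimulation and 32.8, 35.9 and 34.5 TPM with TRAIL. The groups did not overlap and descended from medium to TRAIL-treated cells. The stimulated mean was 74.7% of medium (-0.42 ± 0.088, adjusted p = 1.8e-03) and 1.62-fold the TRAIL-treated mean (-0.68 ± 0.088 for TRAIL-treated against stimulated cells, adjusted p = 6.1e-05), neither of which was called. TRAIL-treated cells were at 46.0% of medium, a called fall (-1.10 ± 0.088, adjusted p = 2.2e-05) that dropped below the fold threshold under median-of-ratios and quantile scaling.

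The CD8 genes were also set against *Cd4* within each library. The *Cd8a* to *Cd4* ratio averaged 0.102 ± 0.00778 (SD, n = 3) in medium, 0.209 ± 0.0323 in stimulated and 0.0367 ± 0.00284 in TRAIL-treated libraries. On the log2 scale the ratio was -3.23, -3.42 and -3.23 in medium, -2.03, -2.36 and -2.43 after stimulation and -4.68, -4.90 and -4.74 with TRAIL, with no overlap between groups. The groups differed by 1.02 for stimulated against medium, -2.50 for TRAIL-treated against stimulated and -1.48 for TRAIL-treated against medium libraries (exact permutation p = 0.1 each). *Cd4* itself was lower after stimulation (-0.81, adjusted p = 1.2e-03, not called) and enters the denominator, and with the mean of *Cd3d*, *Cd3e* and *Cd3g* in its place the first of these differences was 0.63. The ratio of *Cd8b1* to *Cd4* differed by 0.39, -1.51 and -1.12, of which the first is opposite in sign to the difference of *Cd8b1* itself (-0.42).

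The CD8 genes did not keep their proportion to each other. The *Cd8a* to *Cd8b1* ratio averaged 0.523 ± 0.0357 in medium, 0.807 ± 0.0291 in stimulated and 0.412 ± 0.0806 in TRAIL-treated libraries. Stimulated libraries were all higher than medium libraries (0.63 on the log2 scale) and TRAIL-treated libraries all lower than stimulated ones (-0.99, exact permutation p = 0.1 for both), whereas TRAIL-treated and medium libraries overlapped (-0.36, exact permutation p = 0.2).

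**Figure D4:**
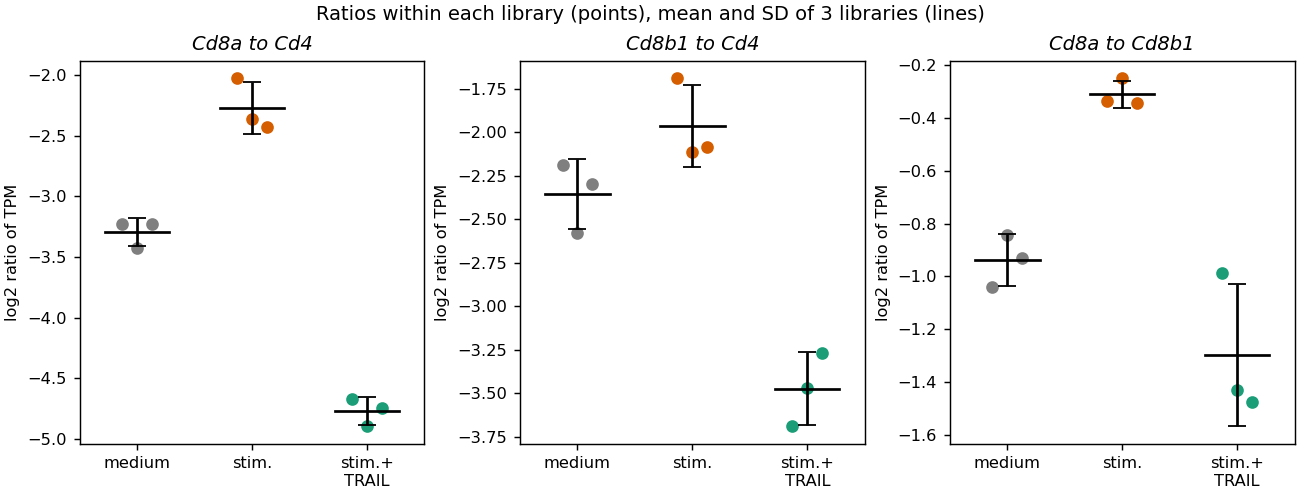
Ratios of TPM within each library on the log2 scale (points, with mean and SD of 3 libraries as lines) for *Cd8a* to *Cd4*, *Cd8b1* to *Cd4* and *Cd8a* to *Cd8b1* in the 3 groups. Stimulated libraries were highest in all 3 ratios, and the TRAIL-treated libraries were lowest without overlap in the ratios to *Cd4* but overlapped the medium libraries in *Cd8a* to *Cd8b1*.

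*Cd8a* without *Cd8b1* is a feature of some dendritic cells, and 8 dendritic cell markers were therefore read beside it. Their sum was 68.8 to 72.1 TPM in medium, 40.3 to 43.0 TPM in stimulated and 44.3 to 48.7 TPM in TRAIL-treated libraries. In stimulated libraries most of this sum came from *Batf3* alone (mean 29.6 TPM), so that it understates the fall of most other markers. *Xcr1* and *Clec9a*, which mark the CD8α+ dendritic cells, had means of 1.51 and 4.80 TPM in medium, 0.0081 and 0.132 TPM in stimulated and 0.68 and 2.56 TPM in TRAIL-treated libraries, and are named after their values were seen. The transcription factor genes *Batf3*, which activated T cells also use, and *Zbtb46* had higher means in stimulated than in medium libraries, namely 29.6 against 4.07 TPM (called) and 5.86 against 2.44 TPM (0.99, not called), and means of 4.91 and 1.20 TPM with TRAIL. *Zbtb46* was also chosen after its values were seen. *Itgax*, the gene of CD11c and the marker with the highest mean over the 9 libraries, had means of 29.8, 3.06 and 16.6 TPM. Of the 8 markers, 6 were called lower and 1 higher after stimulation (19.5 and 12.4% of all genes) and 4 higher and 2 lower in TRAIL-treated against stimulated cells (16.6 and 14.3%), and the part of dendritic cells in the levels of *Cd8a* was not tested.

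Genes that steer the choice between the CD4 and CD8 lineages were read as a list of 11. Of these, 3 were called higher and 4 lower after stimulation (12.4 and 19.5% of all genes), 6 higher and 3 lower in TRAIL-treated against stimulated cells (16.6 and 14.3%), and 0 in either direction in TRAIL-treated cells against medium, where 2.49 and 2.13% of all genes were called. *Tcf7*, which encodes TCF-1 and had the highest mean of them over the 9 libraries, had group means of 1085 TPM in medium, 511 TPM after stimulation and 1063 TPM with TRAIL, and *Lef1* had means of 334, 153 and 349 TPM. *Satb1*, a chromatin organizer of T cells, went the other way, with means of 265, 727 and 267 TPM. *Runx3*, which represses *Cd4* and sustains the CD8 genes in CD8+ T cells, rose with stimulation from a mean of 54.1 to 125 TPM (1.15, adjusted p = 8.4e-04) and was at 57.8 TPM with TRAIL. *Zbtb7b*, which encodes ThPOK and holds the CD8 genes silent in CD4+ T cells, had means of 136, 78.2 and 88.1 TPM. It was lower after stimulation (-0.80, adjusted p = 4.7e-04) and in TRAIL-treated cells against medium (-0.63, adjusted p = 7.2e-03), both under the fold threshold for a call. These last genes were chosen after their values were seen.

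To place each of the 10 genes among all others, the genes nearest to it in pattern were found by Pearson's r of log2(TPM + 1) over the 9 libraries, among 10456 genes whose mean reached 10 TPM in any group. The libraries form 3 groups, so that r mostly reads the order of the group means and is given as a description. For *Klrb1c* the nearest gene was *Klrd1* (r = 0.996), itself of the 10, and *Klrd1* was also among the 3 nearest to *Klre1* (r = 0.990). The nearest to *Ncr1* were *B3gnt8*, *Rhd* and *Btla* (r = 0.993 for each), of which *Rhd* encodes a blood group antigen of erythroid cells and *Btla* an inhibitory receptor of B and T cells. *Klrk1* was nearest to *Fbxo3* (r = 0.989) and *Eomes* to *Slc30a7* (r = 0.985). The nearest to *Tyrobp* were the immunoglobulin light chain genes *Iglv2* (r = 0.999) and *Iglc2* (r = 0.998), and that to *Fcer1g* was *Abtb1* (r = 0.997). *Cd8a* was nearest to *Chtf8* (r = 0.995) and *Cd8b1* to *Mtcp1* (r = 0.989), and neither CD8 gene was among the 3 nearest to the other.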

How the data were processed

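RNA-seq libraries of splenic CD4+ T cells (3 per group) were grouped by the sample labels. The authors extracted RNA with TRIzol, prepared libraries with an Agilent SureSelect XT HS2 kit and sequenced paired ends on a NovaSeq. The submitters' processing notes name Trimmomatic 0.36, HISAT2 2.1.0, SAMtools 1.2, StringTie 2.1.2 and DESeq2. The notes list build GRCh38, a human build, whereas the methods name GRCm38, and the loci of 10 of 10 genes equalled those of GENCODE M21 (GRCm38). The annotation release and strand setting are not given in the sources used here. The authors deposited TPM values, so the depth of each library and its counting error are unknown and no count test was used. Between 13691 and 14909 genes reached 1 TPM per library.

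For the group comparisons, log2(TPM + 1) was fitted with limma 3.58.1 in R 4.3.3 (lmFit, and eBayes with its trend option), in 1 fit of the 9 libraries without a replicate block, with Benjamini-Hochberg adjustment over 15536 genes. A fold change on this scale understates that of low genes. Folds and percents in the text are of mean TPM. Ratios were compared by exact two-sided permutation tests. The 10 genes and the 11 gene lists were chosen with earlier results of these data known. Of each list, the genes with the highest mean over the 9 libraries (up to 4) could be named as examples, and genes chosen otherwise are stated. On 5 simulated data sets of TRAIL-treated against stimulated cells, 99 to 100% of 200 genes changed 4-fold were recovered with at most 2 false calls, over 13985 to 14013 genes. The noise was normal and independent, and a far smaller share of genes was changed than was called in the data. The changed genes were drawn above a level that *Ncr1*, *Klrb1c* and *Klre1* did not reach in stimulated cells. Recovery of such low genes and of changes under 4-fold was therefore not measured. Tables, promoter searches and figures used Python 3.11.15, pandas 2.3.3, scipy 1.17.1 and matplotlib 3.10.9.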

Additional observations from a re-analysis of the deposited data

How the results depend on the processing

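The 10 genes were refitted under 19 alternatives (pseudocounts of 0.1 and 5, no filter or 1 TPM in every library, rescaling, no variance trend, only the groups compared, a replicate block, no fold threshold, and each library left out in turn). Of 570 fold changes, 557 kept their direction and their side of the thresholds, 7 became called (all but 1 without the fold threshold), 6 lost the call and 0 reversed. Many of these could not reverse. The filters, the variance trend, the fit of only the groups compared, the replicate block and the fold threshold leave a fold change as it was. Leaving out a library of the group not compared does so too. For TRAIL-treated against stimulated cells, the count of 5 called genes became 3 with a pseudocount of 5, where *Ncr1* and *Klrb1c* lost the call by the construction of that scale, and 8 with no fold threshold. Leaving out 1 library gave 7 to 7 called genes for stimulated cells and 7 to 7 for TRAIL-treated cells against medium, and 4 to 5 for TRAIL-treated against stimulated cells, where *Klrb1c* was lost without the second stimulated library, and quantile scaling lost it too. Without a library, the *Cd8a* to *Cd4* differences were 0.90 to 1.10, -2.58 to -2.38 and -1.54 to -1.42. With *Cd3d*, *Cd3e* and *Cd3g* as denominator they were 0.63 for stimulated against medium and -2.02 for TRAIL-treated against stimulated libraries, and with *Cd8b1* as numerator 0.39, -1.51 and -1.12. Over all genes, a pseudocount of 5 left 1250 called higher and 1696 lower for stimulated against medium cells (1926 and 3033 with a pseudocount of 1), 1412 and 1471 for TRAIL-treated against stimulated cells (2580 and 2220), and 216 and 116 for TRAIL-treated against medium cells (387 and 331), and a pseudocount of 0.1 gave 553 and 614 for the last. Libraries with the same replicate number did not deviate together (correlations of -0.31 to 0.29 over 9 pairs, 3 of them over 0.1, and 1 of 9 libraries closest to its own number in both other groups). With the replicate block 7, 5 and 7 of the 10 genes were called, as without it, and the *Cd8a* to *Cd4* differences were 1.02, -2.50 and -1.48 (exact p = 0.25, the smallest that 3 pairs allow). The unknown depth and the 3 libraries per group limit the precision of every value.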

Other observations

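Markers of γδ and innate-like T cells, which also carry NK receptors, were low throughout. The sum of 4 such genes was 21.1 to 24.2 TPM in medium, 8.31 to 10.8 TPM after stimulation and 14.1 to 18.5 TPM with TRAIL. *Trdc*, the constant region gene of the TCR δ chain, had means of 10.1, 7.13 and 7.90 TPM and was not called in any comparison. *Cd163l1*, a scavenger receptor gene of γδ T cells, fell with stimulation from a mean of 6.62 to 0.555 TPM (-2.29, adjusted p = 3.1e-07) and rose with TRAIL against stimulation alone to 4.01 TPM (1.68, adjusted p = 3.3e-06). *Zbtb16*, which encodes PLZF of innate-like T cells, had means of 3.79, 1.47 and 3.61 TPM and was called lower after stimulation (-1.01, adjusted p = 2.4e-03). *Klra8*, the gene of the activating Ly49H receptor, was named after its values were seen, and had means of 23.0, 1.61 and 7.14 TPM (-3.20 for stimulated against medium and 1.63 for TRAIL-treated against stimulated cells, both called).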
